A study of Mus musculus with 45 samples.

Results

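The miR-29 family consists here of 3 mature miRNAs, miR-29a-3p, miR-29b-3p and miR-29c-3p, which were selected from the deposited tables by their names there, mmu-mir-29a-3p, mmu-mir-29b-3p and mmu-mir-29c-3p. All 3 were listed in each of the 6 tables, out of 476 miRNAs listed in any table and 206 listed in every table. They were measured in alveolar macrophages (AM), the resident phagocytes of the air spaces, obtained by bronchoalveolar lavage from 45 mice, 21 males and 24 females. The mice were 12 weeks old and of 3 genotypes, all on the C57BL/6J SP-A knockout background, so that every group lacked the mouse surfactant protein A (SP-A). The SP-A2 mice carried the human SP-A2 variant 1A0, the co-ex mice carried human SP-A1 (6A2) together with SP-A2 (1A0), and the KO mice carried neither human gene. Mice were exposed for 3 h to filtered air (FA) or ozone (O3) and the cells were taken after 18 h of recovery, from females synchronised for the estrous cycle. The SP-A2 mice numbered 3 males and 4 females per exposure, the co-ex mice 4 males after FA, 3 males after O3 and 4 females per exposure, and the KO mice 4 of each sex per exposure. The protocol text of the study gives 3 co-ex males per exposure, whereas 4 samples carry the label of a co-ex male after FA, and all 4 were used. The promoter driving the human genes and the number of founder lines are not given in the sources used here.

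A miRNA guides the Argonaute complex to messenger RNAs that pair with its seed, the bases at positions 2 to 8, and lowers their translation or stability. The miR-29 members are known as repressors of collagens and other matrix genes and of the DNA methyltransferases DNMT3A and DNMT3B, and loss of miR-29 accompanies fibrosis in lung and other tissues. Each member is cut from the 3′ side of a hairpin, and the opposite 5p strand is usually degraded.

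The mature sequences below (RefSeq, GRCm38.p6) are shown because they explain which members can share targets and which can share reads. The seed is in capitals.
miR-29a-3p: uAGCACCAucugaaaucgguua
miR-29b-3p: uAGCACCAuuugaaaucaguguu
miR-29c-3p: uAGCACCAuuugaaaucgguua
All 3 carry the seed AGCACCA, and no other of the 1679 mature mouse miRNAs in the table does. Counted from 1 at the 5′ end, miR-29c-3p differs from miR-29a-3p only by C10U. Over the 22 positions they share, miR-29b-3p differs from miR-29a-3p by C10U, G18A, U21G and A22U, and it is 1 base longer. Since 1 base separates miR-29a-3p from miR-29c-3p, the low counts of miR-29c-3p are uncertain where the counting of the reads, which is not given in the sources used here, could assign a miR-29a-3p read to it.

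The members come from 4 hairpins in a pair of clusters. Mir29a (miR-29a-3p at chr6:31062673-31062694, minus strand) and Mir29b-1 (miR-29b-3p at chr6:31063025-31063047, minus strand) lie 275 bases apart, and Mir29b-1 shares its outermost bases with an exon of the long noncoding RNA Gm27019. Mir29b-2 (miR-29b-3p at chr1:195037091-195037113, plus strand) and Mir29c (miR-29c-3p at chr1:195037600-195037621, plus strand) lie 426 bases apart, inside an exon of the noncoding transcript A330023F24Rik and opposite an exon of Cd46. The mature miR-29b-3p of both clusters is the same sequence, so its reads cannot be assigned to either hairpin.

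The listed reads ranged from 137965 to 2884013 per mouse (median 766213), and the family took 0.139 to 1.97% of them (median 0.693%). Levels below are counts per 1000000 reads (CPM) on the 206 shared miRNAs. The myeloid label was checked against 7 miRNAs. MiR-223-3p (530 to 7750 CPM) and miR-21a-5p were read in all 45 mice, while miR-142a-3p, a marker of all blood cells, was at 0 in 8 of them. MiR-142a-5p, miR-146a-5p and miR-155-5p were at 0 in 2, 3 and 4 mice. MiR-200c-3p, a marker of epithelial cells, was also read in all 45 mice (683 to 8042 CPM, median 4296). Its median was above that of miR-223-3p (2668 CPM) and below those of miR-21a-5p (43830 CPM) and miR-146b-5p (33330 CPM). The other myeloid miRNAs had medians of 259 to 549 CPM. Each mouse was 1 replicate.

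MiR-29a-3p was the dominant member in every mouse, with 88.1 to 100% of the family's reads. In SP-A2 males its level was 18277, 13435 and 12597 CPM after FA and 13386, 15658 and 15963 CPM after O3. In SP-A2 females it was 6632, 10249, 9414 and 7801 CPM after FA and 5677, 10668, 10577 and 9582 CPM after O3. In co-ex males it was 4578, 10100, 1464 and 6933 CPM after FA and 2779, 2360 and 6133 CPM after O3. Every SP-A2 male lay above every mouse of the other genotypes, which was seen, in either direction, for 0.485% of the 206 shared miRNAs, and the FA and O3 mice overlapped in each of these groups. In co-ex females the level was 4054, 8398, 3824 and 1637 CPM after FA and 3755, 3670, 4998 and 3768 CPM after O3. In KO males it was 9783, 7560, 8647 and 6059 CPM after FA and 11326, 8214, 11994 and 6558 CPM after O3. In KO females it was 6610, 6097, 1400 and 4798 CPM after FA and 5087, 5332, 6946 and 3179 CPM after O3. The lowest values, 1400, 1464 and 1637 CPM, were each from a co-ex or KO mouse after FA. In these mice 166, 169 and 151 of the 206 shared miRNAs had reads (median of all mice 199). The 10 most read miRNAs took 78.8%, 78.8% and 66.8% of their listed reads (median 61.7%). Co-ex male FA replicate 4, with reads of 134 shared miRNAs, had 6933 CPM. The part of the library in these values was not tested. Ordered by reads, miR-29a-3p ranked from 12 to 52 among the listed miRNAs of a mouse (median 28).

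**Figure D1:**
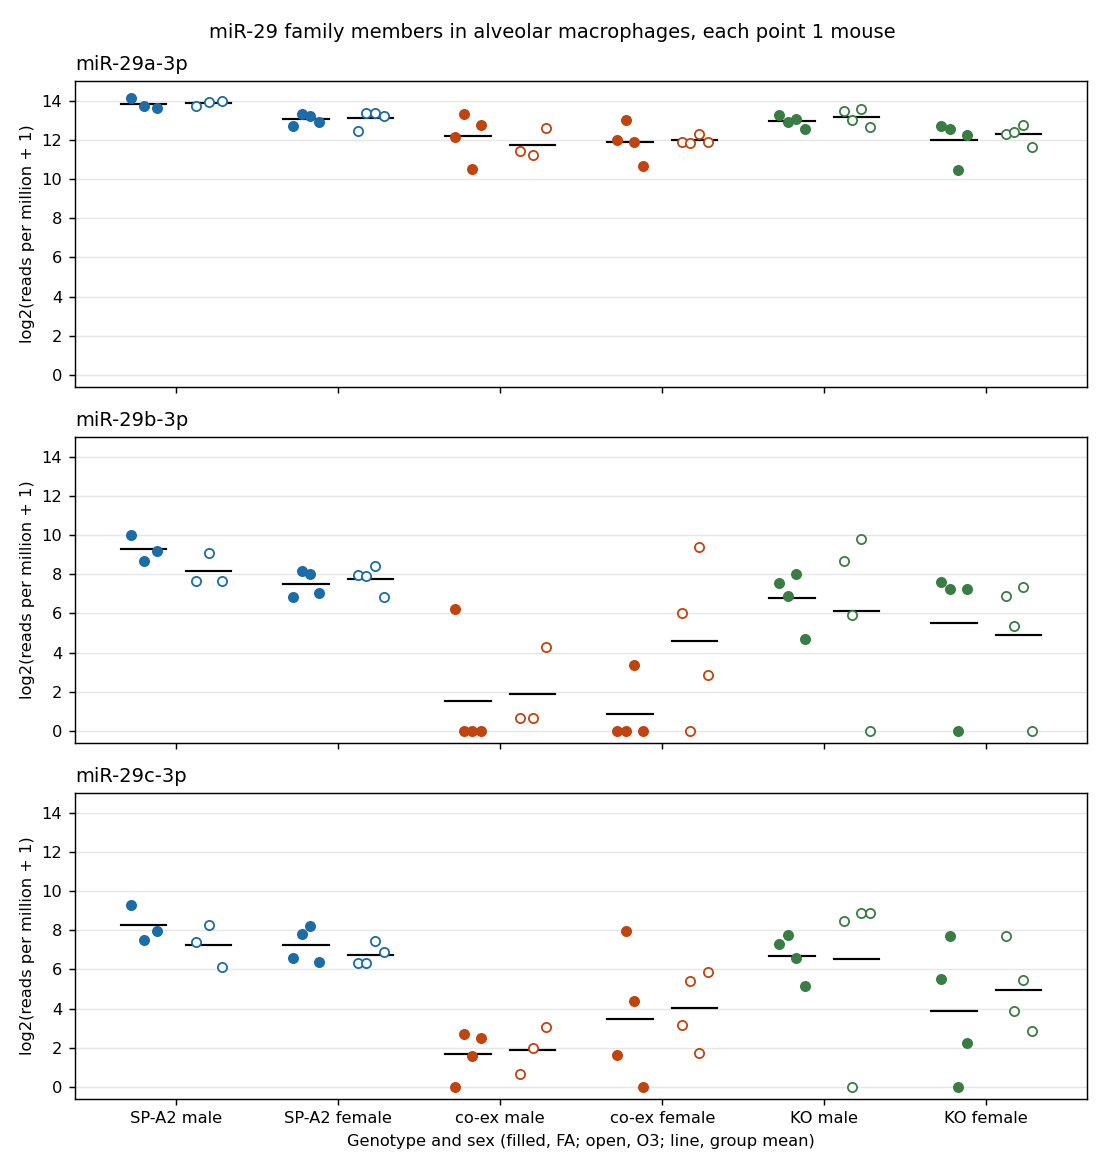
Level of each miR-29 member as log2(CPM + 1) on the vertical axis for the 12 groups of genotype, sex and exposure; each point is 1 mouse and each line a group mean. MiR-29a-3p was read in every mouse, from 1400 to 18277 CPM, while miR-29b-3p and miR-29c-3p fall to or near 0 in most co-ex mice, 7 of 15 and 2 of 15 of which had no read.

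MiR-29b-3p, the member made by both clusters, was read in 35 of 45 mice. In SP-A2 males it was 1012, 415 and 582 CPM after FA and 203, 543 and 202 CPM after O3. In SP-A2 females it was 115, 285, 254 and 129 CPM after FA and 248, 240, 339 and 113 CPM after O3. All 14 SP-A2 mice had at least 40 reads of it. In co-ex males it was 72.6, 0, 0 and 0 CPM after FA and 0.57, 0.60 and 18.9 CPM after O3. In co-ex females it was 0, 0, 9.37 and 0 CPM after FA and 63.4, 0, 674 and 6.35 CPM after O3. A single co-ex female after O3, replicate 3, therefore lay far above every other co-ex mouse. In the 6 co-ex mice with no read after FA, a count of 0 allowed a level of up to 2.05 to 14.3 CPM (3 reads). In KO males the level was 186, 117, 256 and 25.3 CPM after FA and 408, 60.1, 885 and 0 CPM after O3. In KO females it was 190, 153, 0 and 151 CPM after FA and 118, 39.8, 161 and 0 CPM after O3. The KO mice spread from 0 to 885 CPM, a range that held all but 1 of the 14 SP-A2 mice.

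MiR-29c-3p was read in 41 of 45 mice. In SP-A2 males it was 616, 178 and 251 CPM after FA and 166, 308 and 69.8 CPM after O3. In SP-A2 females it was 94.8, 223, 302 and 81.7 CPM after FA and 80.8, 79.8, 173 and 120 CPM after O3. None of the SP-A2 mice fell below 69.8 CPM. In co-ex males it was 0, 5.46, 1.98 and 4.62 CPM after FA and 0.57, 2.98 and 7.25 CPM after O3, which is at most 8 reads in any mouse. In co-ex females it was 2.06, 248, 20.1 and 0 CPM after FA and 8.07, 41.9, 2.33 and 57.9 CPM after O3. The co-ex males were thus all lower than every SP-A2 mouse, while 3.88% of the shared miRNAs separated these groups in either direction, and the co-ex females spread over a wider range. In KO males the level was 154, 219, 94.7 and 35.1 CPM after FA and 356, 0, 465 and 462 CPM after O3. In KO females it was 44.5, 207, 0 and 3.68 CPM after FA and 204, 13.6, 42.9 and 6.15 CPM after O3. The members did not always fall together in a mouse. The co-ex female with 674 CPM of miR-29b-3p had 2.33 CPM of miR-29c-3p, and KO male O3 replicate 4, with no read of miR-29b-3p, had 462 CPM of miR-29c-3p.

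Ordered by group mean, miR-29a-3p was highest in SP-A2 males after O3 (15002 ± 1408 CPM, SD) and FA (14770 ± 3066 CPM), followed by KO males after O3 (9523 ± 2573 CPM), and lowest in co-ex males after O3 (3757 ± 2068 CPM). Of the 11 steps between neighbours in this order, 10 were smaller than the larger SD of the pair, and the exception was the step from SP-A2 males after FA to KO males after O3. For miR-29b-3p and miR-29c-3p, all 11 steps were smaller than that SD. Both were highest in SP-A2 males after FA, at 669 ± 308 and 348 ± 235 CPM. MiR-29b-3p was lowest in co-ex females after FA (2.34 ± 4.68 CPM) and miR-29c-3p in co-ex males after FA (3.01 ± 2.50 CPM). Within groups, the SD of log2(CPM + 1) was 0.639 for miR-29a-3p, 2.61 for miR-29b-3p and 2.21 for miR-29c-3p, against a median of 1.73 over the shared miRNAs. A smaller within-group SD than that of miR-29a-3p was seen for 9.22% of the shared miRNAs.

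The first question of the design is whether O3 changed the family in AM. No change of any member was detectable, though limma recovered only 0 to 38.3% of 8-fold changes simulated with a wide spread (dispersion 1). With a narrow spread (dispersion 0.05) it recovered 98.3 to 100% of them. The simulated spreads were not fitted to the members. In limma on log2(normalized value + 1) within each table, 0 of 18 member tests passed an adjusted p of 0.1, 0 had an unadjusted p under 0.05, and edgeR on the recovered reads also called 0. DESeq2 called 0 of the 17 tests to which it gave an adjusted p. Over all listed miRNAs, the share called was 0.67% among SP-A2 males, 0% among co-ex males and 5.18% among KO males, and for females of the same genotypes 1.07%, 1.38% and 0%. In co-ex males and KO females, where 0 miRNAs were called, 8 and 22 had an unadjusted p under 0.05. None of the 18 comparisons had all O3 mice on 1 side of all FA mice, which 22.3%, 7.26% and 8.84% of miRNAs showed in the males of SP-A2, co-ex and KO and 5.09%, 7.93% and 4.18% in the females.

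The log2 difference of miR-29a-3p (O3 minus FA) among males was 0.17 (SE 0.34) in SP-A2, -0.30 (SE 0.55) in co-ex and 0.18 (SE 0.38) in KO, beside a median over all miRNAs of 0.17, 0.64 and -0.29. Among females it was 0.22 (SE 0.27), 0.34 (SE 0.52) and 0.23 (SE 0.44), beside medians of 0.18, 0.31 and 0.45. For miR-29b-3p, the difference closest to the threshold was that in SP-A2 males (-1.02, SE 0.56, adjusted p = 0.386), with a 95% interval from -2.27 to 0.24. The largest in size was that of co-ex females (3.72, SE 1.99, adjusted p = 0.501), where 3 of 4 mice had no read after FA and 1 of 4 after O3. It was 2.15 without replicate 3 of the O3 mice and 5.24 without their replicate 2. For miR-29c-3p, the differences ran from -0.84 (SE 0.72) in SP-A2 males to 1.16 (SE 2.15) in KO females. In KO males the signs of all 3 members turned under edgeR and DESeq2 on recovered reads, to -0.21 and -0.04 for miR-29a-3p, 0.86 and 1.03 for miR-29b-3p and 0.81 and 1.03 for miR-29c-3p, with no call.

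Averaged over the 6 tables, the log2 difference was 0.14 for miR-29a-3p (SE 0.16, 95% interval -0.18 to 0.46, adjusted p = 0.628). It was 0.39 for miR-29b-3p (SE 0.78, interval -1.19 to 1.97, adjusted p = 0.812) and 0.14 for miR-29c-3p (SE 0.68, interval -1.24 to 1.51, adjusted p = 0.927). Thus 0 of 3 members were called by limma, and 0 had an unadjusted p under 0.05, while 25.7% of the shared miRNAs were called in this averaged comparison, 41 of them higher and 12 lower after O3. The composition of the family was also compared. The mean share of miR-29a-3p in the family's reads was 97.05% after FA and 96.7% after O3, that of miR-29b-3p 1.73% and 2.03%, and that of miR-29c-3p 1.22% and 1.28%. No difference in share between O3 and FA was detected (two-sided permutation of exposure within tables over 45 mice with 100000 resamples, adjusted p = 0.888 for each member).

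**Figure D2:**
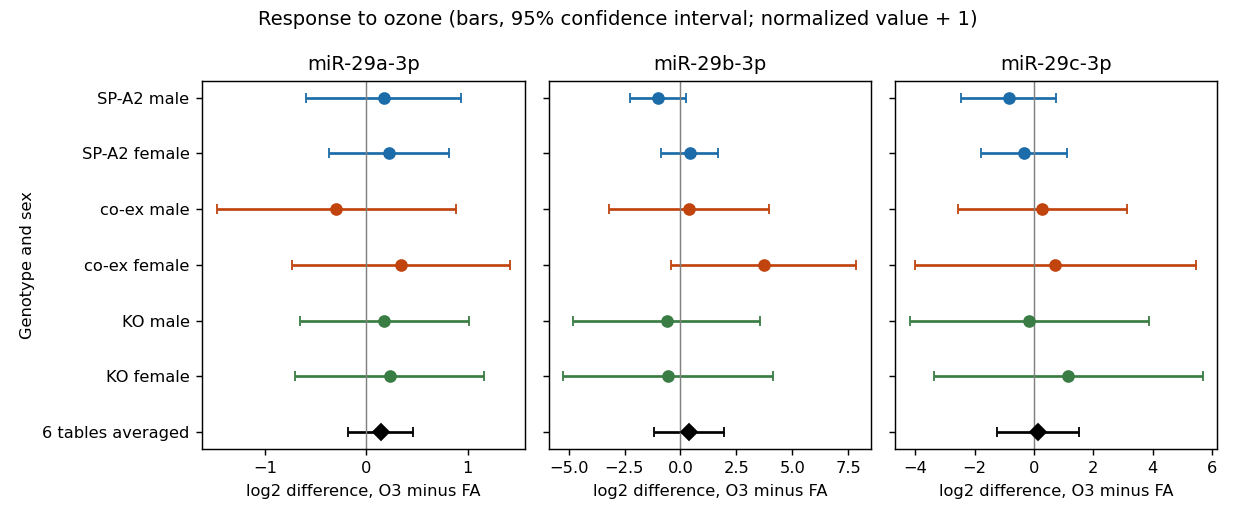
Log2 difference between O3 and FA (horizontal axis, O3 minus FA, on normalized value + 1) for each genotype and sex and for the average over the 6 tables; points are estimates and bars their 95% confidence intervals, and the 3 panels have different scales. Every interval includes 0, and that of miR-29a-3p averaged over the tables runs from -0.18 to 0.46.

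The response to O3 was next compared between sexes and between genotypes. In the 9 comparisons of males with females within a genotype, the difference in response of a member ranged from -3.35 (SE 2.66, miR-29b-3p in co-ex) to -0.05 and none was called by limma (0 with an unadjusted p under 0.05, lowest adjusted p = 0.875). Of all miRNAs, 0.282% were called for SP-A2 and 0% for each of co-ex and KO. All 9 values were below 0, of which 3 turned above 0 with a pseudocount of 10. The 3 members of a genotype were measured in the same mice. Over all miRNAs, the median of this difference was -0.433 for KO, 0.145 for co-ex and -0.064 for SP-A2. For KO, miR-29a-3p (-0.051) and miR-29b-3p (-0.049) lay above that median, as did miR-29a-3p for SP-A2 (-0.056). The remaining values lay below the median of their genotype. In the 9 comparisons between genotypes, none was called either (0 with an unadjusted p under 0.05, lowest adjusted p = 0.684), and 0% of all miRNAs were called in each of the 3 pairs of genotypes. The largest were those of miR-29b-3p, at -2.35 (SE 1.68) between SP-A2 and co-ex and 2.63 (SE 2.17) between co-ex and KO.

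Levels were then compared between males and females of the same genotype after the same exposure, by edgeR on the recovered reads. The log2 difference of miR-29a-3p (male minus female) was 0.72 in SP-A2 after FA (SE 0.30, adjusted p = 0.377), 0.75 in SP-A2 after O3 (SE 0.30, adjusted p = 0.290), 0.56 and 0.17 for co-ex, and 0.88 (SE 0.38, adjusted p = 0.578) and 0.64 in KO, after FA and O3. Its estimate was above 0 in all 6 comparisons, where 21.5 to 42.9% of all miRNAs had a larger difference. In 3 of them it had an unadjusted p under 0.05, those of SP-A2 after FA and O3 and of KO after FA. Such a p was seen there for 38 of 354, 42 of 354 and 20 of 270 miRNAs. None of the 18 member tests passed the adjusted threshold in edgeR, where 4 had an unadjusted p under 0.05, and 0.282% of all miRNAs were called in SP-A2 after FA, 0.282% in SP-A2 after O3 and 0% in each of the co-ex and KO comparisons. DESeq2 called 2 of the 18, both in SP-A2 after FA: miR-29a-3p (log2 difference 0.82, adjusted p = 0.0992) and miR-29b-3p (1.83, adjusted p = 0.0493), for which edgeR gave 1.71 (SE 0.55, adjusted p = 0.236). DESeq2 called 8.29% of the miRNAs to which it gave an adjusted p in that comparison. Males and females of a genotype were in separate tables, so that the sex and any difference in how a table was made cannot be told apart.

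The family differed in level between SP-A2 and co-ex, while no member was called against KO in the same edgeR test. Each genotype and sex was a table of its own, so that the genotype and any difference in how its tables were made cannot be told apart. After FA, all 3 members were higher in SP-A2 than in co-ex. The mean level of miR-29a-3p was 11201 ± 3948 CPM in SP-A2 (n = 7) and 5124 ± 3104 CPM in co-ex (n = 8), a log2 difference of 1.02 in edgeR, averaged over the sexes (SE 0.28, 2.02-fold, adjusted p = 0.0108). MiR-29b-3p was at 399 ± 315 CPM in SP-A2 and 10.2 ± 25.4 CPM in co-ex (log2 difference 5.58, SE 1.47, 95% interval 2.57 to 8.59, adjusted p = 0.00846). Each of the 7 SP-A2 mice lay above each of the 8 co-ex mice for this member, and 2.91% of the shared miRNAs separated these mice in either direction. Without co-ex male FA replicate 1, the only co-ex male with a read after FA, the fitted difference was 8.99 and was still called, a value that then depends on the prior count of the fit. MiR-29c-3p was at 249 ± 180 CPM in SP-A2 and 35.3 ± 86.2 CPM in co-ex (log2 difference 3.83, SE 1.04, interval 1.70 to 5.96, adjusted p = 0.0101), and 1 co-ex female, at 248 CPM, overlapped the SP-A2 mice. In this comparison 20.7% of all miRNAs were called, 22 higher and 22 lower in SP-A2.

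After O3, miR-29a-3p was again higher in SP-A2 (11645 ± 3646 CPM, n = 7) than in co-ex (3923 ± 1285 CPM, n = 7), by 1.54 on the log2 scale (SE 0.30, 2.91-fold, adjusted p = 0.00192). MiR-29c-3p was at 142 ± 83.9 CPM and 17.3 ± 22.9 CPM (log2 difference 3.87, SE 1.11, adjusted p = 0.0313), with no overlap between the 7 SP-A2 and the 7 co-ex mice, a separation that 0.971% of the shared miRNAs showed. MiR-29b-3p did not pass (270 ± 138 and 109 ± 250 CPM, log2 difference 3.17, SE 1.39, adjusted p = 0.203), and without co-ex female O3 replicate 3 its difference was 4.58 (adjusted p = 0.0578). Of all miRNAs, 12.2% were called. Altogether, 5 of the 6 member tests between SP-A2 and co-ex were called.

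The same differences were read for each sex. In an alternative chosen after seeing the data, each sex was taken alone from the same fit. In males, the differences after FA were 1.18, 5.31 and 6.32 for miR-29a-3p, miR-29b-3p and miR-29c-3p (adjusted p = 0.0524, 0.0815 and 0.0127), and after O3 2.08, 6.01 and 5.91 (adjusted p = 0.00719, 0.122 and 0.0407), with 20.2% and 13.1% of all miRNAs called. In females they were 0.85, 5.84 and 1.34 after FA (adjusted p = 0.459, 0.306 and 0.824) and 1.00, 0.32 and 1.83 after O3 (adjusted p = 0.593, 0.996 and 0.967), and none passed, with 1.41% and 0% of all miRNAs called. Whether the genotype difference itself differed between the sexes was not tested.

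**Figure D3:**
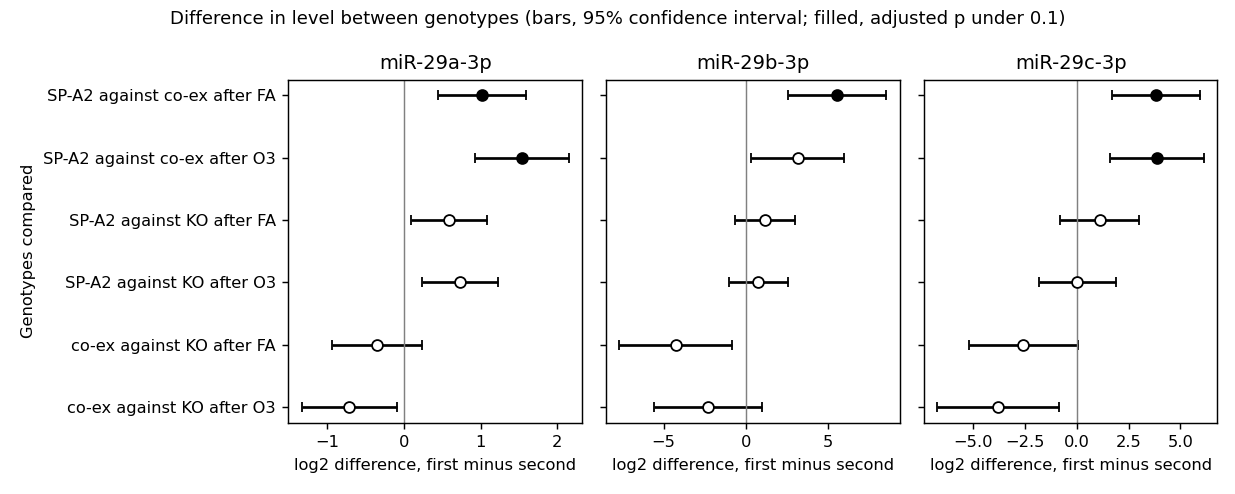
Log2 difference in level between genotypes (horizontal axis, first genotype minus second, averaged over the sexes) after FA and O3 for each member; bars are 95% confidence intervals, filled points passed an adjusted p of 0.1, and the 3 panels have different scales. The filled points are the 5 comparisons of SP-A2 with co-ex that passed, with values from 1.02 to 5.58.

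Between SP-A2 and KO, no member passed the test in edgeR. After FA, miR-29a-3p was at 6369 ± 2554 CPM in KO (n = 8), and the log2 difference (SP-A2 minus KO) was 0.58 (SE 0.24, adjusted p = 0.239). After O3, KO was at 7330 ± 3059 CPM and the difference was 0.74 (SE 0.24, adjusted p = 0.191). DESeq2 called both (0.72, adjusted p = 0.0235, and 0.72, adjusted p = 0.0406), among 18.6% of the miRNAs to which it gave an adjusted p after FA and 6.85% after O3. For miR-29b-3p the differences were 1.17 (SE 0.89) and 0.78 (SE 0.89), and for miR-29c-3p 1.11 (SE 0.92) and 0.03 (SE 0.91), none past the threshold. Of all miRNAs, 4.49% were called after FA and 0% after O3, where 19 had an unadjusted p under 0.05 and DESeq2 called 10. The estimates of co-ex minus KO were below 0 in each of the 6 member tests but none was called by edgeR. The largest differences were those of miR-29b-3p after FA (-4.26, SE 1.68, adjusted p = 0.368) and miR-29c-3p after O3 (-3.79, SE 1.44, adjusted p = 0.363), and DESeq2 called the latter (-3.79, adjusted p = 0.0892), among 1.45% of all miRNAs. Of all miRNAs, 0% were called between co-ex and KO after FA, with 15 at an unadjusted p under 0.05, and 0.483% after O3.

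Several properties of the libraries were compared between the genotypes. Of the 206 shared miRNAs, 199 to 206 had reads in an SP-A2 mouse (median 203), 134 to 201 in a co-ex mouse (median 185) and 156 to 203 in a KO mouse (median 198.5), while the median of the listed reads was 751842 per SP-A2 mouse, 751828 per co-ex mouse and 781984 per KO mouse. After FA, the summed level of the 7 myeloid miRNAs was 103580 to 246892 CPM in SP-A2, 10062 to 136278 CPM in co-ex and 9901 to 186197 CPM in KO. After O3 it was 29995 to 221472, 13002 to 85584 and 21290 to 149190 CPM, so that the genotypes overlapped with the sexes pooled. In males after FA it was 231035 to 246892 CPM in SP-A2 and 10062 to 68850 CPM in co-ex. In females after FA it was 103580 to 181663 and 41730 to 136278 CPM. In males after O3 it was 80652 to 221472 CPM in SP-A2 and 13002 to 57370 CPM in co-ex, without overlap. In females after O3 it was 29995 to 159544 and 22511 to 85584 CPM. The summed level of the 2 erythroid miRNAs listed in all tables, of 4 in the list, after FA was 6584 to 33401 CPM for SP-A2, 2591 to 363807 CPM for co-ex and 7358 to 370823 CPM for KO, and after O3 up to 143567, 358434 and 162669 CPM. Most of it was miR-486b-5p, since miR-451a, the other of the 2, did not exceed 187 CPM in any mouse. Leaving the erythroid miRNAs out of the fit, an alternative chosen after seeing the data that changes the scaling and not the cells, gave SP-A2 minus co-ex of 1.12, 5.69 and 3.96 after FA and 1.46, 3.12 and 3.76 after O3. The summed epithelial miRNAs (8 of 12 in all tables) were 6769 to 13027 CPM for SP-A2, 1084 to 10194 CPM for co-ex and 3286 to 11220 CPM for KO after FA. Their sums after O3 were 7427 to 18109, 7299 to 17068 and 6248 to 25697 CPM. After O3, the summed mesenchymal miRNAs (8 of 12 in all tables) were 7358 to 26548 CPM in SP-A2, 8074 to 17049 CPM in co-ex and 4656 to 24065 CPM in KO, against highest values of 7627, 6910 and 7998 CPM after FA. The part of these cell markers in the genotype differences of the family was not tested. In bulk samples, fewer cells of a type and less RNA per cell cannot be told apart.

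The opposite strands of the hairpins were mostly scarce. MiR-29a-5p was listed in 1 table, miR-29b-2-5p and miR-29c-5p in 2 tables each, and none of them exceeded 76 reads in a mouse. MiR-29b-1-5p, the opposite strand of miR-29b-3p in the Mir29b-1 hairpin, was listed in 5 tables and is shown for that reason.
miR-29b-1-5p: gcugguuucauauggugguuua
In co-ex females after FA it had 106, 79, 282 and 150 reads, in mice with 0, 0, 7 and 0 reads of miR-29b-3p. After O3 it had 453, 0, 43 and 571 reads, beside 55, 0, 289 and 9 reads of miR-29b-3p. In SP-A2 males the order was the opposite, with 12 to 200 reads of the 5p strand and 165 to 748 of miR-29b-3p. The 5p strand had more reads than miR-29b-3p in 6 of 8 co-ex females, 0 of 6 SP-A2 males, 2 of 8 SP-A2 females, 3 of 8 KO males and 2 of 8 KO females. This contrast was noticed in the data and was not tested. MiR-29b-3p can also come from Mir29b-2, whose 5p strand was not listed for co-ex females.

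**Figure D4:**
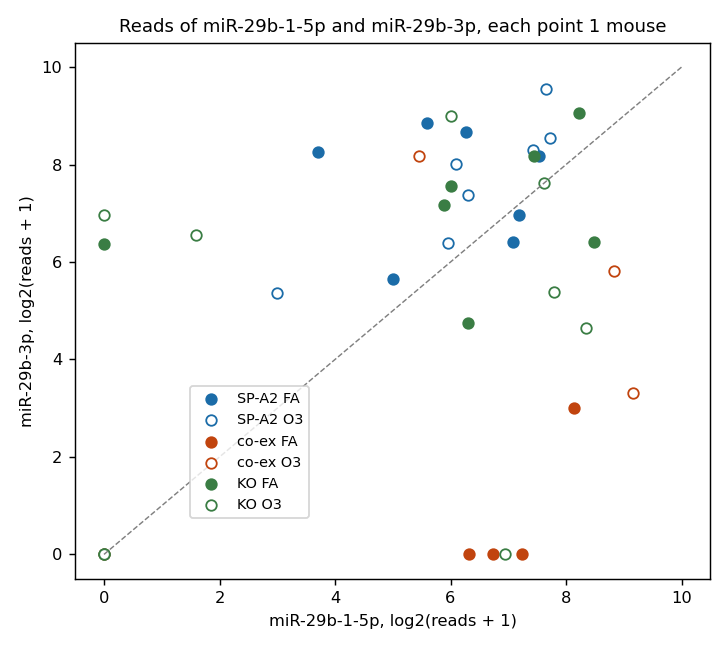
Reads of miR-29b-3p (vertical axis) against reads of miR-29b-1-5p (horizontal axis), both as log2(reads + 1), for the 38 mice of the 5 tables that list both strands; the dashed line marks equal reads. In 6 of 8 co-ex mice, all female, the point lies below the line, and 3 of those after FA have no read of miR-29b-3p.

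The miRNAs whose group means were most like those of a member were found by Pearson's r of log2(CPM + 1) over the 12 groups, as a description. MiR-29a-3p was most like miR-27a-3p (r = 0.974), miR-16-5p (0.934) and miR-22-3p (0.914), with a median of 0.367 over all others. MiR-29b-3p was most like miR-29c-3p (0.930), miR-27a-3p (0.925) and miR-186-5p (0.921), with a median of 0.439. MiR-29c-3p was most like miR-142a-5p (0.932), miR-29b-3p (0.930) and miR-24-3p (0.928), with a median of 0.466. The 12 points share libraries and the same scaling. MiR-29a-3p had an r of 0.859 with miR-29b-3p and 0.899 with miR-29c-3p. After the group means were removed, r over the 45 mice was 0.486 between miR-29a-3p and miR-29b-3p, which share the chromosome 6 cluster, 0.515 between miR-29a-3p and miR-29c-3p, which share no cluster, and 0.141 between miR-29b-3p and miR-29c-3p, which share the chromosome 1 cluster. The median over all pairs of shared miRNAs was 0.057 and the upper quartile 0.237.

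Other miRNAs with related roles were read for context. Of 10 miRNAs known to target DNA or histone methyltransferases, as miR-29 does, 1 was called after O3 in co-ex females, beside 1.38% of all miRNAs, and 1 in KO males, beside 5.18%, in both cases miR-143-3p, which was higher after O3 (log2 difference 5.63, SE 1.26, adjusted p = 0.0225, and 3.62, SE 0.67, adjusted p = 0.0135). MiR-143-3p is also a marker of smooth muscle and fibroblasts. The list's median log2 difference was 0.46, 0.37 and 0.015 in the males of SP-A2, co-ex and KO and 0.13, 0.73 and 0.63 in the females, against the medians over all miRNAs given above. Of 12 miRNAs known in lung fibrosis and TGF-beta signalling, 1 was called, miR-155-5p, a regulator of macrophage activation, which was lower after O3 in SP-A2 females (-2.42, SE 0.49, adjusted p = 0.0454), where 1.07% of all miRNAs were called. The medians of this list were 0.61, 0.87 and 0.58 in the males and 0.28, 0.96 and 0.57 in the females.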

How the data were processed

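Small RNA libraries (NEXTflex Small RNA kit v3, HiSeq 2500) of 45 mice were analysed, grouped by the genotype, sex and exposure in the sample labels. The authors deposited 6 tables, 1 per genotype and sex, with a normalized signal per miRNA and mouse (reads divided by a factor of the mouse). The authors also deposited a p-value, a q-value and a rank per miRNA, which were not used. The submitters' processing notes name CASAVA and edgeR, while the file names mention DESeq2. The aligner, miRNA reference and genome build are not given in the sources used here. Coordinates are RefSeq's on GRCm38.p6, and host genes are from GENCODE on the same assembly.

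Whole reads were recovered from the step between values, of which 100% of each mouse's values were multiples (within 1e-06 of the step). At least 100 values lay within 20 steps in 8 mice, and as few as 14 in the others. Totals cover the listed miRNAs alone, not whole libraries, and floors of 3 reads cover counting error only. The 6 tables were normalized separately, so that levels were compared between tables only on recovered reads. O3 and FA were compared with limma 3.58.1 (R 4.3.3, trend) on log2(normalized value + 1), and levels with edgeR 4.0.16 (TMM, quasi-likelihood), with the SE taken from its F statistic. P-values were adjusted by Benjamini-Hochberg over all miRNAs tested, with a threshold of 0.1. Methods were tested on simulated data. As alternatives, the pseudocount was set to 0.1 or 10, low values (under 10) were filtered, and fits were made with median-ratio scaling, a replicate block, edgeR or DESeq2 1.42.0 on recovered reads, and without each mouse. Shared replicate numbers were not taken as pairs of mice, since the correlation of deviations was over 0.1 in only 6 of 22 pairs (range -0.138 to 0.271). With 3 or 4 mice per group, this check cannot exclude pairing. None of 63 pairs of mice within a group agreed within sampling noise. The members, lists and tests were chosen with earlier results of these data known. Named miRNAs were the members, their opposite strands, the 3 miRNAs most like each member and the called miRNAs of the context lists.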

Additional observations from a re-analysis of the deposited data

Results flagged for a closer look

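In 5 of 27 sets of values (each member in each group of 4 mice), 1 mouse lay far from the other 3, by the ratio of its gap to the group's range. Chance gives this in about 1 in 20 sets of normally distributed values. The values here were not log-transformed and included low counts, so that this rate may not hold for them. It does not apply where the other 3 mice are at 0 and the ratio is 1 by construction, as in the first 2 sets below. In co-ex females after FA, replicate 3 had a normalized value of miR-29b-3p of 8.55 (7 reads) while the other mice were at 0. In co-ex males after FA, replicate 1 had 72.7 of miR-29b-3p (10 reads) while the others were at 0. In co-ex females after O3, replicate 3 had 604 of miR-29b-3p, and the others 0 to 61.7. For miR-29c-3p, replicate 2 of the co-ex females after FA had 169, and the others 0 to 18.3. Replicate 1 of the KO females after O3 had 215 of miR-29c-3p, and the others 6.18 to 29.5. In 4 of the 5 sets, the mouse was a co-ex mouse, and none of the 5 concerned miR-29a-3p. The cause was not tested.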

How the results depend on the processing

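All 5 called differences between SP-A2 and co-ex kept their direction and passed under the low-value filter, median-ratio factors, DESeq2, the replicate block, without the erythroid miRNAs and without any 1 mouse, though miR-29b-3p after FA ranged from 5.33 to 8.99, the highest without co-ex male FA replicate 1. Taken in females alone, none passed, at 0.85, 5.84 and 1.34 after FA and 1.00 and 1.83 after O3. Of the other member values, no O3 call was gained or lost, and the signs that turned are given here, as log2 differences; the cause was not tested. The members are named a, b and c for miR-29a-3p, miR-29b-3p and miR-29c-3p.

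For O3 against FA, with DESeq2 the values were -0.039 (a), 1.03 (b) and 1.03 (c) in KO males, -0.92 (c) in co-ex females and -1.60 (b) in co-ex males. With edgeR they were -0.21, 0.86 and 0.81 in KO males, -0.0077 (a) and -1.02 (c) in co-ex females and -1.61 (b) in co-ex males. Median-ratio rescaling gave -0.068 for a in KO males and 0.10 for the difference in response of a between SP-A2 and KO. A pseudocount of 10 gave 0.12 (b) and 0.53 (c) in KO males, -0.23 (b) in co-ex males and -0.0051 (c) averaged over the tables, and for differences in response -0.11 (b, SP-A2 against KO), -0.40 (c, co-ex against KO), 0.60 and 0.13 (b and c, sexes of KO) and 0.016 (c, sexes of co-ex). The shares of a and b turned to 0.127 and -0.357 percentage points with medians and 0.230 and -0.320 without the co-ex female table, and those of a and c to 0.147 and -0.292 without the KO male table.

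For no genotype and sex was the correlation of deviations over 0.1 at every replicate number, and this check cannot exclude pairing. The replicate block turned b to -0.14 in co-ex males (O3 against FA), b to -0.92 (KO, male against female, FA) and c to -0.064 (SP-A2 against KO, O3), and it raised b between SP-A2 and co-ex after O3 to 4.67 (adjusted p = 0.0688). It moved the number of called miRNAs from 0 to 2 in KO females, 4 to 0 in SP-A2 females and 3 to 1 in SP-A2 males (O3 against FA), from 12 to 7 (SP-A2 against KO, FA) and from 1 to 0 (SP-A2, male against female, O3).

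For levels, calls were gained for b between SP-A2 and co-ex after O3 (3.06 in DESeq2), for a between SP-A2 and KO (0.72 in DESeq2 after both exposures and 0.72 with median-ratio factors after FA), for c between co-ex and KO after O3 (-3.79 in DESeq2) and for a and b between SP-A2 males and females after FA (0.82 and 1.83 in DESeq2). For c between SP-A2 and KO after O3 the value turned to -0.10 in DESeq2, -0.10 with median-ratio factors and -0.57 in males alone. In males alone b turned to -0.015 there, and in females alone b between co-ex and KO after O3 turned to 1.05.

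The number of called miRNAs moved most with DESeq2, for O3 against FA from 3 to 54 (SP-A2 males), 4 to 26 (SP-A2 females), 0 to 5 (co-ex males), 4 to 14 (co-ex females), 17 to 41 (KO males) and 0 to 2 (KO females). For genotypes it moved from 12 to 30 and 0 to 10 (SP-A2 against KO, FA and O3), 0 to 2 and 1 to 3 (co-ex against KO), and for sexes from 1 to 17 and 1 to 26 (SP-A2), 0 to 4 (co-ex, FA) and 0 to 2 (KO, FA). EdgeR gave 5, 2 and 0 for O3 in SP-A2 males, SP-A2 females and co-ex females. Median-ratio factors gave 10 and leaving out the erythroid miRNAs 8 for the sexes of SP-A2 after O3 (1), and leaving them out gave 6 for SP-A2 against KO after FA (12). Co-ex against KO after O3 (1) gave 0 with median-ratio factors, with the low-value filter, without the erythroid miRNAs and in females alone, and 4 in males alone. Females alone gave 3 and 0 for SP-A2 against co-ex (44 and 26) and 1 for SP-A2 against KO after FA, and males alone 4 and 3 for SP-A2 against KO. Median-ratio rescaling and a pseudocount of 0.1 each gave 1 for the response of co-ex against KO (0).

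Leaving out each mouse, the O3 difference ranged from -0.063 to 0.49 (c, averaged), from -0.057 to 0.37 (a), -2.30 to 1.00 (b) and -0.037 to 2.41 (c) in KO females, from -1.84 to 1.41 (b) and -0.97 to 1.97 (c) in KO males, from -0.064 to 0.66 (a) and -0.37 to 2.10 (c) in co-ex females, where b ranged from 2.15 to 5.24, and from -0.63 to 0.0095 (a), -0.71 to 1.93 (b) and -0.29 to 0.89 (c) in co-ex males. Differences in response ranged from -0.15 to 0.14 (a) and -0.72 to 1.15 (b) for SP-A2 against KO, -1.06 to 0.69 (c) for co-ex against KO, -0.23 to 0.23 (a), -1.61 to 1.96 (b) and -2.58 to 0.81 (c) for the sexes of KO, -0.20 to 0.080 (a) and -1.08 to 0.17 (c) for those of SP-A2, and -1.82 to 0.65 (c) for those of co-ex. Levels ranged from 0.51 to 0.77 and 0.63 to 0.82 (a, SP-A2 against KO, FA and O3), -0.32 to 0.95 (c, the same after O3), 2.77 to 4.58 (b, SP-A2 against co-ex, O3), -7.81 to -4.02 (b, co-ex against KO, FA), 0.58 to 0.98 (a) and -0.25 to 0.92 (b) for the sexes of SP-A2 after O3, -4.25 to 6.73 (b, sexes of co-ex, FA) and -0.024 to 0.31 (a, sexes of co-ex, O3). The mice whose absence brought a level past the threshold were SP-A2 male O3 replicate 3 (0.98, a, sexes), co-ex female O3 replicate 3 (4.58) and co-ex male O3 replicate 3 (4.52; b, SP-A2 against co-ex), KO female FA replicate 2 (0.70), KO male FA replicate 1 (0.77) and KO male O3 replicate 3 (0.82; a, SP-A2 against KO), and co-ex male FA replicate 1 (-7.81, b, co-ex against KO). Shares ranged from -0.636 to 0.0856 (a), -0.176 to 0.485 (b) and -0.133 to 0.233 (c) percentage points.

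Called numbers ranged from 0 to 1 in KO females, 5 to 27 in KO males, 0 to 26 in SP-A2 females, 1 to 40 in SP-A2 males and 0 to 13 in co-ex females for O3, from 0 to 3, 0 to 2 and 1 to 3 for the responses of SP-A2 against co-ex, co-ex against KO and the sexes of SP-A2, from 3 to 29 and 0 to 10 (SP-A2 against KO), 14 to 30 (SP-A2 against co-ex, O3) and 0 to 5 and 0 to 3 (co-ex against KO), and from 0 to 2 and 0 to 44 (sexes of SP-A2), 0 to 2 (co-ex, FA) and 0 to 3 (KO, O3). Under the low-value filter, 3 of the 18 O3 tests could not be fitted. Of the 15 co-ex mice, 11 had under 10 reads of miR-29b-3p and 11 of miR-29c-3p, against 0 of 14 SP-A2 mice, at similar median totals (751828 and 751842 listed reads), and values on so few reads are imprecise.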
